A study of Mus musculus with 9 samples.

Results

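The 10 genes described here carry insulin's signal to the glucose transporters of muscle or limit glucose uptake: Slc2a4, Slc2a1, Insr, Irs1, Irs2, Akt2, Pik3r1, Tbc1d1, Tbc1d4 and Txnip. They were chosen by symbol for these roles, with earlier results of these data known. All 10 stand among the 13116 genes of the deposited table. Their messenger RNA was measured in quadriceps muscle in a mouse model of Pompe disease, in which loss of Gaa, the lysosomal enzyme that degrades glycogen, leaves glycogen stored in muscle. The 9 libraries fall into 3 groups of 3, all from males aged 18 months that had received a tail vein injection at 9 months of age. KO_secGAA are Gaa knockout mice injected with AAV8-sp7-delta8-hGAAco, a vector for a secretable form of human acid alpha-glucosidase, which the study's title places in the liver. KO_PBS are Gaa knockout mice given PBS, and WT_PBS are wild-type mice given PBS. No group of wild-type mice received the vector, so effects of the vector itself and of the enzyme it encodes cannot be told apart. The labels do not say that each library is a separate mouse, so the p-values measure the spread between these libraries.

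In muscle, insulin binds its receptor (Insr), which phosphorylates the adaptors Irs1 and Irs2. These recruit phosphoinositide 3-kinase through its regulatory subunit (Pik3r1), and the lipid it makes activates Akt2. Akt2 phosphorylates Tbc1d4 and Tbc1d1, proteins that hold vesicles with the transporter GLUT4 (Slc2a4) inside the cell by switching off Rab GTPases, and the vesicles then move to the surface. GLUT1 (Slc2a1) sits at the surface of many cell types and carries glucose without insulin. Txnip, an arrestin whose transcription rises with glucose, lowers uptake through both transporters.

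Depth ranged between 9299156 and 15957106 reads per library, so that 1 read is worth 0.0652 to 0.0922 normalized counts, and the members had between 91 and 9471 reads. Gaa itself read 15.1 to 16.6 normalized counts in KO_secGAA, 14.0 to 17.8 in KO_PBS and 129 to 296 in WT_PBS, so both knockout groups were below every WT_PBS library. The 10 markers of fast fibres, the main fibres of mouse quadriceps, were read in every library and summed to 135600 to 153500 in KO_secGAA, 106400 to 115300 in KO_PBS and 140700 to 179600 in WT_PBS. In RNA of whole muscle, fewer cells of a type and less RNA per cell cannot be told apart.

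Slc2a4 was lower and Slc2a1 higher in knockout muscle given PBS than in wild-type muscle, and the means of treated knockout muscle lay in between. Of the 10 members, 1 rose and 1 fell in KO_PBS against WT_PBS, where 10.9% of the 13089 genes tested rose, 11.0% fell and 21.9% changed in either direction. None of the 10 passed in KO_secGAA against KO_PBS, where 1.37% of all genes rose, 2.31% fell and 3.67% changed. In KO_secGAA against WT_PBS 1 member rose and none fell, beside 1.83% of all genes that rose, 1.89% that fell and 3.72% that changed. A change here means an adjusted p under 0.05 (limma on log2(normalized count + 0.5), Benjamini-Hochberg over all genes tested). The 3 comparisons share libraries, KO_PBS and WT_PBS each serving in a pair of them, so their values are set side by side and not counted as repeats. Limma called none in KO_secGAA against KO_PBS, but 3 members had an unadjusted p under 0.05, as did 19.3% of all genes. There edgeR called 1 of the 10 members and 445 of all genes. DESeq2 called 3 of the 10 and 798 of all genes, more than the 481 that limma called.

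**Figure D1:**
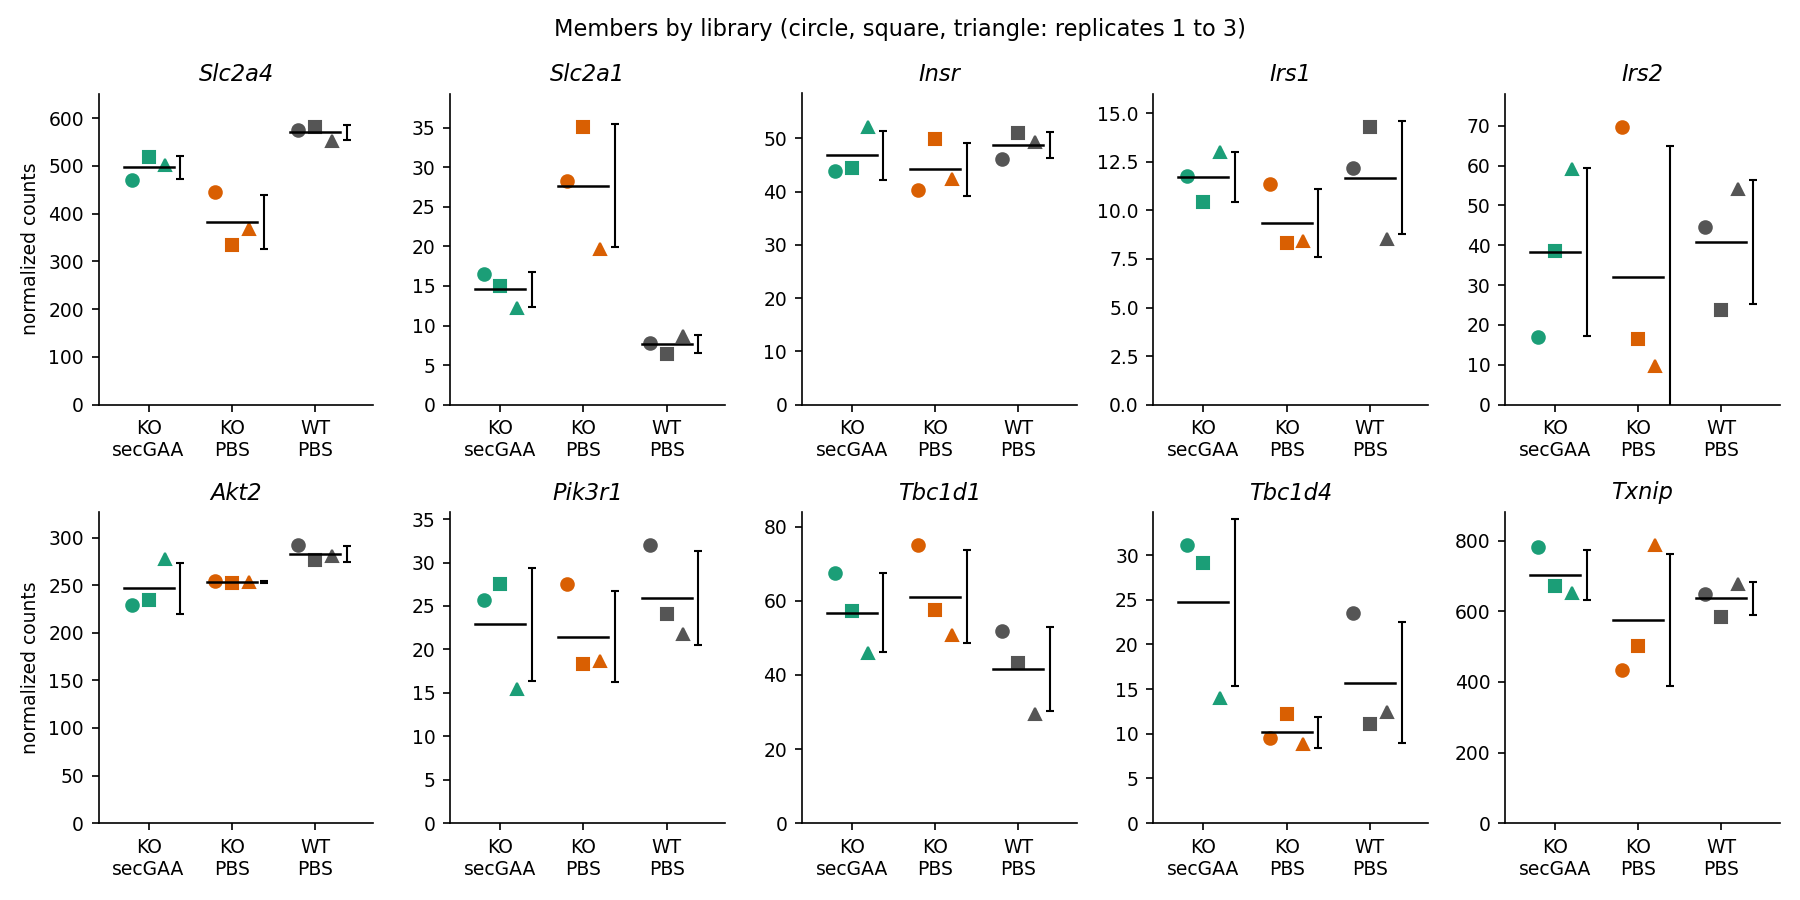
Normalized counts (y axes, from 0) of the 10 genes in the 9 libraries, with KO_secGAA, KO_PBS and WT_PBS on the x axes; points are libraries, the long line is the mean and the bar beside it the SD (n = 3), which for Irs2 in KO_PBS runs below 0 and is cut there. Slc2a4 lies between 334 and 445 in KO_PBS and between 552 and 582 in WT_PBS, Slc2a1 between 19.6 and 35.1 in KO_PBS and between 6.43 and 8.62 in WT_PBS, and neither gene overlaps between any pair of groups.

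Slc2a4 (ENSMUSG00000018566, minus strand of GRCm38 chr11:69942539-69948188) codes for the insulin-responsive transporter and had 471, 518 and 502 normalized counts in KO_secGAA. It had 445, 334 and 368 in KO_PBS and 576, 582 and 552 in WT_PBS. Every KO_secGAA library was above every KO_PBS library and below every WT_PBS library. The means were 497 ± 24 in KO_secGAA, 383 ± 56.9 in KO_PBS and 570 ± 15.5 in WT_PBS (SD, n = 3 each). In KO_PBS against WT_PBS Slc2a4 fell by 0.58 ± 0.11 on the log2 scale (SE), 1.5-fold lower, with adjusted p = 0.00431. Without the deposited scaling factors, which puts the median of all genes at 0.31 on that scale in place of 0.01, its value was -0.27 and no longer passed (adjusted p = 0.0533). Over the 18 alternatives, which change the pseudocount, filter, scaling or test or leave out a library, Slc2a4 passed in all others.

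The log2 difference of Slc2a4 in KO_secGAA against KO_PBS was 0.39 ± 0.11, 1.31-fold, and missed the threshold with adjusted p = 0.0844 (95% interval 0.15 to 0.62). It passed in 2 of 18 alternatives, with an adjusted p of up to 0.239 in the others. These 2 were DESeq2 (adjusted p = 0.0254) and the fit without KO_PBS replicate 1, the highest of its group (0.50, adjusted p = 0.0318). Relative to WT_PBS the KO_secGAA difference was -0.20 ± 0.11 with adjusted p = 0.315 (95% interval -0.44 to 0.04). The groups did not overlap there, which held for 2 of the 10 members and for 26.8% of all genes. Beside Slc2a4, 6 of 10 fast-fibre markers fell and none rose in KO_PBS against WT_PBS, and their median of -0.62 on the log2 scale turned to 0.09 with quantile normalization, where 1 fell. Without scaling factors, where 89.6% of the 4985 genes that changed were higher, 2 of the 10 fell. Among the 8 slow-fibre markers 6 rose in that comparison, and their sum was 279 to 959 in KO_secGAA, 544 to 2302 in KO_PBS and 50.5 to 491 in WT_PBS. Of 8 fat cell markers none passed in KO_PBS against WT_PBS (list median -0.98), and in KO_secGAA against KO_PBS 1 rose (list median 0.94), Lep, the gene of the hormone leptin. Fat cells also use GLUT4, and the summed fat cell markers were 340 to 966 in KO_secGAA, 222 to 452 in KO_PBS and 332 to 1461 in WT_PBS. No marker of these 3 lists was at 0 reads in any library, but Lep in KO_PBS replicate 1 (0.163) was below what 3 reads are worth there (0.196). The part of these lists in the Slc2a4 result was not tested.

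Slc2a1 showed the largest difference of the 10 in KO_PBS against WT_PBS. The gene (ENSMUSG00000028645) lies on the plus strand of GRCm38 chr4:119108711-119137983. RefSeq's promoter window on GRCm38.p6, read from chr4:119108495-119108710 on the plus strand and stopping before the annotated gene start, is printed because Slc2a1 passed in both comparisons with WT_PBS; capitals mark a GC box, a short motif bound by Sp1.
Slc2a1 promoter: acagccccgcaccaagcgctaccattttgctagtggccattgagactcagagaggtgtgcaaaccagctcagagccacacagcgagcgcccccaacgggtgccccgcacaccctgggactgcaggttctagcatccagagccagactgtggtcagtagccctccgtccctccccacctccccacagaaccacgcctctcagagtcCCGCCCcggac
The GC box was searched as GGGCGG and, on the other strand, CCGCCC, and the match lies 45 to 40 bases before the RefSeq start. The same letters stand in 27.862% of 32851 RefSeq promoter windows of 216 bases, and in 7 of the 8 members with a window, which are all but Slc2a4 and Insr. The percentage counts windows, of which a gene can have several, and a member was counted if any of its windows matched, so the values are not on the same footing. A match describes the letters and not binding.

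The level of Slc2a1 was 16.5, 15.0 and 12.2 normalized counts in KO_secGAA, 28.3, 35.1 and 19.6 in KO_PBS, and 7.85, 6.43 and 8.62 in WT_PBS. Every KO_secGAA library was below every KO_PBS library and above every WT_PBS library. Group means were 14.6 ± 2.19, 27.7 ± 7.76 and 7.63 ± 1.11 in KO_secGAA, KO_PBS and WT_PBS (SD, n = 3 each). In KO_PBS against WT_PBS Slc2a1 rose 3.39-fold (log2 1.76 ± 0.21, adjusted p = 0.00045), and it passed in all 18 alternatives. A larger absolute log2 difference was seen in 2.25% of all genes.

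The log2 difference of Slc2a1 in KO_secGAA against KO_PBS was -0.87 ± 0.21, 1.83-fold lower, with adjusted p = 0.0502 (95% interval -1.34 to -0.41), just outside the threshold. It passed in 6 of 18 alternatives, among them edgeR (adjusted p = 0.0433), DESeq2 (0.00288), a pseudocount of 2 (0.0472) and leaving out KO_PBS replicate 3, the lowest of its group (0.0234). That was the 1 of 9 fits leaving out a library in which it passed, and the adjusted p was up to 0.15 in the alternatives that did not pass. Slc2a1 rose 1.85-fold in KO_secGAA against WT_PBS (log2 0.89 ± 0.21, adjusted p = 0.0461). That call held in 9 of the 18 alternatives. It was lost with a pseudocount of 2 (adjusted p = 0.0552), quantile normalization (0.0544) and voom (0.0917). It was also lost without KO_secGAA replicate 1 (0.13) or 2 (0.141), KO_PBS replicate 1 (0.0608), or WT_PBS replicate 1 (0.0731), 2 (0.128) or 3 (0.108).

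GLUT1 is also made by other cells that muscle holds, among them macrophages, endothelium and perineurial cells. In KO_PBS against WT_PBS 4 of 12 macrophage markers rose and none fell, and their sum was 154 to 332 normalized counts in KO_secGAA, 278 to 401 in KO_PBS and 112 to 181 in WT_PBS. Of the 10 endothelial markers 4 fell in KO_PBS against WT_PBS and none rose, with a sum of 220 to 255 in KO_secGAA, 156 to 204 in KO_PBS and 216 to 268 in WT_PBS. Without the scaling factors 10 of the 12 macrophage markers rose and none of the endothelial markers fell. Over all genes 4985 changed in that fit, 89.6% of them higher. With the factors, none of 8 Schwann and perineurial markers and none of 5 erythroid markers passed in KO_PBS against WT_PBS. The nerve sum was 58.1 to 63.7 in KO_secGAA, 62.6 to 68.1 in KO_PBS and 48.0 to 71.2 in WT_PBS. The erythroid sum was 88.2 to 448 in KO_secGAA, 33.0 to 176 in KO_PBS and 171 to 452 in WT_PBS. Markers of regenerating fibres rose in 4 of 8 cases in KO_PBS against WT_PBS, with a sum of 77.2 to 102 in KO_secGAA, 106 to 184 in KO_PBS and 42.2 to 78.6 in WT_PBS. None of these markers was at 0 reads in any library, but 2 values were below what 3 reads are worth in that library. These were Chrng of the regenerating fibre list in WT_PBS replicate 1 (0.103, beside 0.206) and Alas2 of the erythroid list in KO_PBS replicate 2 (0.197, beside 0.236). The part of these markers in the Slc2a1 result was not tested.

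Within a library, the ratio of Slc2a4 to Slc2a1 does not depend on how the library was scaled. Its values were 28.4, 34.5 and 41.1 in KO_secGAA, 15.7, 9.52 and 18.8 in KO_PBS, and 73.3, 90.5 and 64.0 in WT_PBS. No pair of groups overlapped. Each of the 2 genes already separated every pair of groups, in opposite orders. The separation of the ratio and its p of 0.1 below follow from that and are no further result. The mean log2 ratio was 2.41 ± 0.33 (SE) lower in KO_PBS than in WT_PBS, a 5.33-fold lower ratio. It was 1.28 ± 0.33 higher in KO_secGAA than in KO_PBS, and 1.13 ± 0.21 lower in KO_secGAA than in WT_PBS. Each of the 3 comparisons gave p = 0.1 in a two-sided exact permutation test, the smallest that 3 libraries against 3 allow (0.18 adjusted over the 9 ratio tests made).

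**Figure D2:**
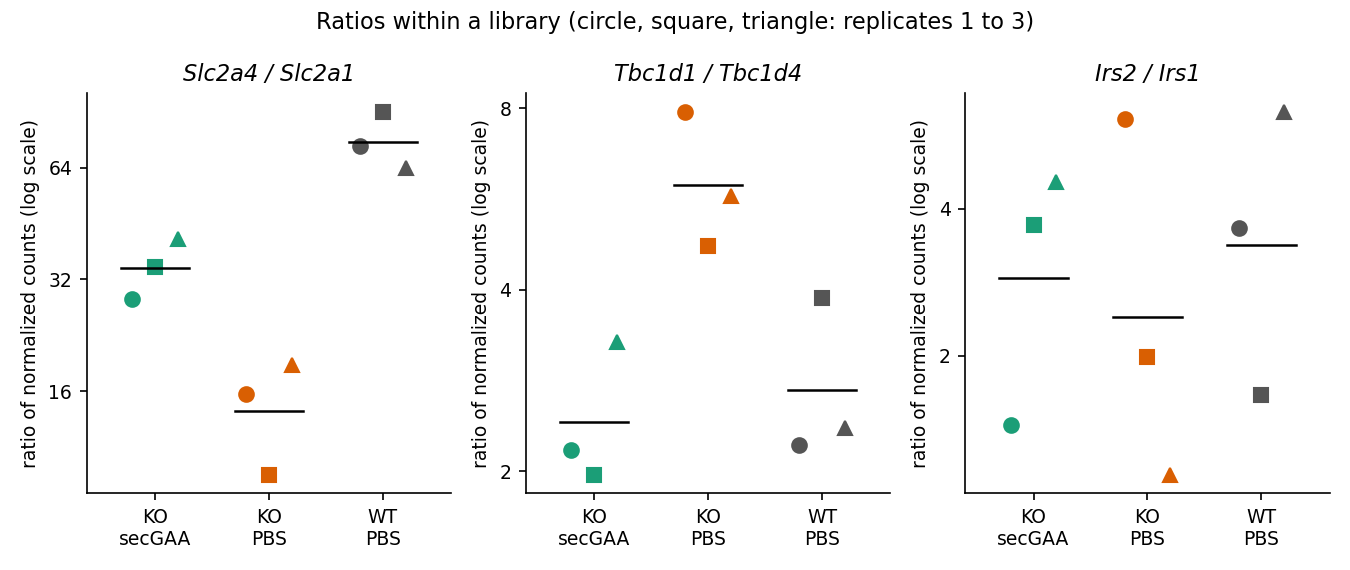
Ratios of normalized counts within each library (y axes, log scale) for 3 pairs of genes, in KO_secGAA, KO_PBS and WT_PBS (x axes); points are libraries and the line is the mean of the log ratios. The Slc2a4 to Slc2a1 ratio runs between 9.52 and 18.8 in KO_PBS and between 64.0 and 90.5 in WT_PBS, while the Irs2 to Irs1 ratio overlaps in every pair of groups.

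The genes most like the 2 called members over the 9 libraries, by Pearson's r on the log2 scale, are given as a description, since the libraries share their 3 groups. For Slc2a4 these were Azin2 (r = 0.977) and Gpcpd1 (r = 0.971), with means of 157 in KO_secGAA, 94.8 in KO_PBS and 239 normalized counts in WT_PBS for Gpcpd1. Azin2 was low, with means of 2.59, 1.48 and 3.31 in the same order. For Slc2a1 they were Krt80 (r = 0.982) and Sbno2 (r = 0.981), and Sbno2 averaged 13.8 in KO_secGAA, 22.3 in KO_PBS and 9.65 normalized counts in WT_PBS. Krt80 was low, with means of 1.33, 4.08 and 0.443 in that order.

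The receptor and its adaptors did not pass in any of the 3 comparisons. Insr (ENSMUSG00000005534, minus strand of chr8:3122061-3279617), the insulin receptor, had 43.8, 44.5 and 52.1 normalized counts in KO_secGAA, 40.3, 49.8 and 42.3 in KO_PBS, and 46.1, 50.9 and 49.3 in WT_PBS. All groups overlapped, and the log2 difference was -0.15 ± 0.11 in KO_PBS against WT_PBS (95% interval -0.38 to 0.09, adjusted p = 0.365). It was 0.08 ± 0.11 in KO_secGAA against KO_PBS and -0.06 ± 0.11 in KO_secGAA against WT_PBS. The 95% intervals in these 2 comparisons were -0.15 to 0.32 and -0.30 to 0.18, with adjusted p = 0.721 and 0.776.

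Irs1 (ENSMUSG00000055980, minus strand of chr1:82233101-82291416) had the fewest reads of the adaptors, with 11.7, 10.4 and 13.0 normalized counts in KO_secGAA, 11.4, 8.31 and 8.41 in KO_PBS, and 12.2, 14.3 and 8.55 in WT_PBS. The groups overlapped in every comparison, with a log2 difference of -0.29 ± 0.20 in KO_PBS against WT_PBS (adjusted p = 0.329), 0.32 ± 0.20 in KO_secGAA against KO_PBS (adjusted p = 0.422) and 0.03 ± 0.20 in KO_secGAA against WT_PBS (adjusted p = 0.945). Gm9747 lies on the opposite strand within the span of this locus, and the sources used here do not say if reads were counted by strand. Whether the exons of the 2 genes overlap, and so whether they could share reads, was not tested.

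Irs2 (ENSMUSG00000038894, minus strand of chr8:10984681-11008458), the other main adaptor, varied far more between libraries of a group than between groups. Its levels were 16.9, 38.7 and 59.2 normalized counts in KO_secGAA, 69.7, 16.5 and 9.61 in KO_PBS, and 44.5, 23.7 and 54.1 in WT_PBS. Both the highest and the lowest of the 9 values were in KO_PBS. The SD of Irs2 was 55.3% of the mean in KO_secGAA, 103% in KO_PBS and 38.1% in WT_PBS, against 0.494% to 10.9% over the groups for Akt2. The log2 difference was -0.77 ± 0.67 in KO_PBS against WT_PBS (95% interval -2.27 to 0.73, adjusted p = 0.454), the widest interval of the 10 in that comparison. The difference ran from -1.57 without KO_PBS replicate 1 (adjusted p = 0.0616) to -0.18 without KO_PBS replicate 3 (adjusted p = 0.882). It was 0.59 ± 0.67 in KO_secGAA against KO_PBS (adjusted p = 0.691) and -0.18 ± 0.67 in KO_secGAA against WT_PBS (adjusted p = 0.907). The ratio of Irs2 to Irs1 overlapped in every pair of groups, with means of 3.23 ± 1.61 in KO_secGAA, 3.08 ± 2.67 in KO_PBS and 3.88 ± 2.35 in WT_PBS (SD, n = 3 each, two-sided exact permutation p = 0.7 to 0.9).

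Pik3r1 (ENSMUSG00000041417, minus strand of chr13:101680563-101768217), the regulatory subunit of phosphoinositide 3-kinase, had 25.7, 27.6 and 15.5 normalized counts in KO_secGAA, 27.5, 18.3 and 18.6 in KO_PBS, and 32.0, 24.1 and 21.7 in WT_PBS. Its groups overlapped throughout, and its log2 differences were -0.27 ± 0.24 in KO_PBS against WT_PBS, 0.07 ± 0.24 in KO_secGAA against KO_PBS and -0.20 ± 0.24 in KO_secGAA against WT_PBS (adjusted p = 0.459, 0.906 and 0.672 in that order).

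Akt2 (ENSMUSG00000004056, plus strand of chr7:27591552-27640826), the Akt form that serves insulin-driven glucose uptake, had 229, 234 and 278 normalized counts in KO_secGAA. It had 255, 252 and 254 in KO_PBS and 292, 276 and 281 in WT_PBS. The KO_PBS libraries lay close together (254 ± 1.25, SD, n = 3) and all below WT_PBS. The log2 difference was small, -0.16 ± 0.09 in KO_PBS against WT_PBS (95% interval -0.35 to 0.04, adjusted p = 0.228), and was 0.16 without the scaling factors. In KO_secGAA against WT_PBS it was -0.20 ± 0.09 (adjusted p = 0.213), with KO_secGAA replicate 3 inside the WT_PBS range, and in KO_secGAA against KO_PBS -0.04 ± 0.09 (adjusted p = 0.831). Groups that do not overlap were common among all genes, 39.7% in KO_PBS against WT_PBS and 24.0% in KO_secGAA against KO_PBS, and the members showed 3 of 10 in each.

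Tbc1d1 and Tbc1d4, the Rab GTPase activators at the end of the pathway, did not pass in any comparison. Tbc1d1 (ENSMUSG00000029174, plus strand of chr5:64156305-64351486) had 67.4, 57.2 and 45.9 normalized counts in KO_secGAA, 75.0, 57.6 and 50.7 in KO_PBS, and 52.0, 43.2 and 29.5 in WT_PBS. The KO_PBS and WT_PBS groups overlapped through 1 library. The log2 difference was 0.57 ± 0.22 in KO_PBS against WT_PBS, 1.48-fold, with adjusted p = 0.0956 (95% interval 0.08 to 1.06). It passed in 2 of 18 alternatives, without the scaling factors (0.88, adjusted p = 0.0141) and without WT_PBS replicate 1 (0.75, adjusted p = 0.0436). In the others the adjusted p was up to 0.297. Treated knockout muscle gave -0.10 ± 0.22 relative to KO_PBS (adjusted p = 0.849) and 0.47 ± 0.22 relative to WT_PBS (adjusted p = 0.257).

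Tbc1d4 (ENSMUSG00000033083, minus strand of chr14:101442360-101609191), also known as AS160, had 31.1, 29.1 and 14.0 normalized counts in KO_secGAA. It had 9.49, 12.2 and 8.87 in KO_PBS and 23.5, 11.1 and 12.5 in WT_PBS. All KO_secGAA libraries lay above all KO_PBS libraries, while WT_PBS overlapped both. The log2 difference was 1.17 ± 0.33 in KO_secGAA against KO_PBS, 2.25-fold, and missed the threshold (adjusted p = 0.0907, 95% interval 0.43 to 1.91). A larger absolute difference in that comparison was seen in 1.7% of all genes, a rank that does not take the spread into account. Tbc1d4 passed there in 3 of 18 alternatives, with an adjusted p of up to 0.243 in the others. These 3 were DESeq2 (adjusted p = 0.00487), the fit without KO_secGAA replicate 3, the lowest of its group (1.53, adjusted p = 0.0378), and the fit without WT_PBS replicate 1 (adjusted p = 0.0473). In KO_PBS against WT_PBS the difference was -0.54 ± 0.33 (adjusted p = 0.283), and in KO_secGAA against WT_PBS it was 0.64 ± 0.33 (adjusted p = 0.301). The 8 fat cell markers summed to 574, 966 and 340 normalized counts in KO_secGAA, 406, 452 and 222 in KO_PBS, and 1461, 441 and 332 in WT_PBS, in the order of the Tbc1d4 values. KO_secGAA replicate 3 and WT_PBS replicate 1, the libraries named above, were the lowest and the highest of their groups in both. Lep was the 1 of these 8 that rose in KO_secGAA against KO_PBS (10.5-fold, adjusted p = 0.0181), and it missed the threshold with voom and without KO_secGAA replicate 2. It was low in KO_PBS (1.36 ± 1.16, SD, n = 3), and its log2 difference ran from 2.49 to 4.34 over the 18 alternatives. The part of the fat cell markers in the Tbc1d4 values was not tested.

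The ratio of Tbc1d1 to Tbc1d4 was 2.17, 1.97 and 3.28 in KO_secGAA, 7.90, 4.73 and 5.72 in KO_PBS, and 2.21, 3.88 and 2.36 in WT_PBS. All KO_PBS libraries stood above all of the others. The mean log2 ratio was 1.13 ± 0.34 (SE) higher in KO_PBS than in WT_PBS and 1.31 ± 0.31 lower in KO_secGAA than in KO_PBS. Both gave p = 0.1 in the two-sided exact permutation test, the smallest possible (0.18 adjusted). In KO_secGAA against KO_PBS Tbc1d4 alone already separated the groups, and Tbc1d1 differed by -0.10 on the log2 scale. The ratio there largely restates Tbc1d4 and is no further result. KO_secGAA and WT_PBS overlapped, with a difference of -0.18 ± 0.34 (exact permutation p = 0.5).

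**Figure D3:**
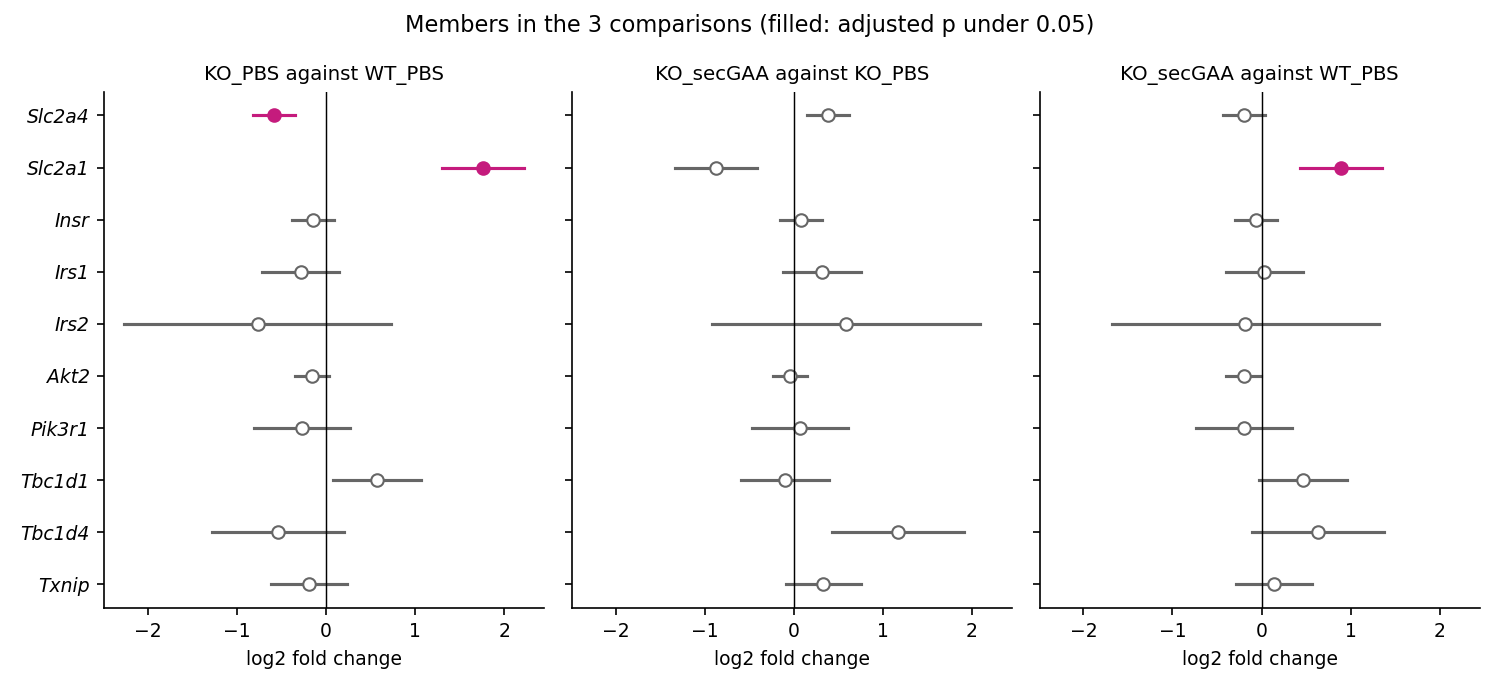
Log2 fold changes (x axes) of the 10 genes in the 3 comparisons, with 95% intervals from limma; filled points have an adjusted p under 0.05. Slc2a4 (-0.58) and Slc2a1 (1.76) are filled in KO_PBS against WT_PBS, none in KO_secGAA against KO_PBS and Slc2a1 (0.89) in KO_secGAA against WT_PBS; the interval of Irs2 is the widest in each.

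Txnip (ENSMUSG00000038393), the arrestin that limits glucose uptake, was the most abundant of the 10 per length. It lies on the plus strand of GRCm38 chr3:96557957-96561883. Its promoter window on GRCm38.p6 (RefSeq, chr3:96557707-96557956, plus strand) is shown because the gene is a standard example of induction by glucose through paired sites of the kind that ChREBP binds; capitals mark them.
Txnip promoter: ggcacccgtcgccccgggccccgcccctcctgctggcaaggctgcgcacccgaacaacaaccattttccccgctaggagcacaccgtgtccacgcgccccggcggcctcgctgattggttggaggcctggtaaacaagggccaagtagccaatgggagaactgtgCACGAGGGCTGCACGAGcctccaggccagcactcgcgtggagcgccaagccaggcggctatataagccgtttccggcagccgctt
The pair was searched as CACGNG or CNCGTG, then 5 bases, then either again, on both strands, and lies 85 to 69 bases before the RefSeq start. It stands in 24 of 32851 windows of 250 bases, 0.073%, and in 1 of the 8 members with a window, where a match in any window of a member counts. The match is a description of these letters and not of binding.

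Txnip had 783, 673 and 651 normalized counts in KO_secGAA, 435, 502 and 787 in KO_PBS, and 649, 584 and 677 in WT_PBS. KO_PBS replicates 1 and 2 were below every other library, while KO_PBS replicate 3 was the highest of all 9. The log2 difference was -0.19 ± 0.19 in KO_PBS against WT_PBS (95% interval -0.62 to 0.23, adjusted p = 0.509). Without KO_PBS replicate 3 it was -0.44 and passed (adjusted p = 0.0388), the 1 of 18 alternatives in which it did. Without the scaling factors it was 0.12, with the opposite sign. In KO_secGAA against KO_PBS it was 0.33 ± 0.19 (adjusted p = 0.39), and in KO_secGAA against WT_PBS 0.14 ± 0.19 (adjusted p = 0.712).

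Per kilobase of exon, the order of the levels was the same at the top in every group. The length used was that of all annotated exons of a gene joined, not of the transcripts present in muscle, and the order across genes depends on it. Txnip averaged 225 ± 22.8 normalized counts per kb in KO_secGAA, 184 ± 59.9 in KO_PBS and 204 ± 15.2 in WT_PBS. Slc2a4 followed with 143 ± 6.9, 110 ± 16.4 and 164 ± 4.45 normalized counts per kb in KO_secGAA, KO_PBS and WT_PBS, and Akt2 with 34.6 ± 3.78, 35.6 ± 0.176 and 39.7 ± 1.13 (SD, n = 3 each). These 3 genes did not overlap with each other within any group, and the other 7 were at most 11.0 per kb in any library. Irs1 was the lowest by its mean in each group, at 1.28 ± 0.14, 1.02 ± 0.191 and 1.28 ± 0.318 normalized counts per kb in KO_secGAA, KO_PBS and WT_PBS. In between, the place of Slc2a1 differed: it ranked 6 in KO_secGAA with 4.16 ± 0.625, 5 in KO_PBS with 7.89 ± 2.21 and 8 in WT_PBS with 2.18 ± 0.318 normalized counts per kb. Its range overlapped those of the genes next to it in rank in each group. Against Insr, which had 3.40 ± 0.337, 3.21 ± 0.364 and 3.55 ± 0.178 normalized counts per kb in KO_secGAA, KO_PBS and WT_PBS, it overlapped in KO_secGAA, lay wholly above in KO_PBS and lay wholly below in WT_PBS.

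Over the 10 members, the median log2 difference was -0.23 in KO_PBS against WT_PBS, beside 0.01 over all genes tested, with 2 above 0 and 8 below. It was 0.20 in KO_secGAA against KO_PBS, beside 0 over all genes, with 7 above 0 and 3 below, and -0.02 in KO_secGAA against WT_PBS, beside 0.01. Without the scaling factors these members' medians were 0.08, 0.05 and 0.14 and those of all genes 0.31, -0.14 and 0.16, so the sign depends on the scaling in both comparisons with WT_PBS. The median absolute difference of the members was 0.41 in KO_PBS against WT_PBS (all genes 0.27), 0.33 in KO_secGAA against KO_PBS (0.18) and 0.20 in KO_secGAA against WT_PBS (0.19). Because the members were chosen with earlier results of these data known, these values only describe them.

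The other genes of the pathway stand in 6 lists, beside the shares of all genes given above. At the receptor, 5 of 24 genes rose and 2 fell in KO_PBS against WT_PBS. Igf2, a growth factor that binds the Igf1 and insulin receptors, was 19.5 ± 3.88 in KO_PBS and 11.3 ± 1.26 in WT_PBS (1.69-fold, adjusted p = 0.0069), and Igf1r, the related receptor, was 10.5 ± 0.815 in KO_PBS and 6.83 ± 0.592 in WT_PBS (1.5-fold, adjusted p = 0.0119). Socs6, a suppressor of cytokine signalling, rose 1.4-fold (adjusted p = 0.00507). Among the same 24, 1 rose in KO_secGAA against KO_PBS, Cav1, the caveolin of surface pits (119 ± 13 in KO_secGAA and 71.5 ± 11 in KO_PBS, adjusted p = 0.0204), and 1 fell, Igf2 (12.1 ± 0.398 in KO_secGAA, adjusted p = 0.0479, passing in 8 of 18 alternatives). Cav1 passed in 14 of 18 alternatives, and not without KO_secGAA replicate 1 or 2 or KO_PBS replicate 1 or 3. None of the 24 passed in KO_secGAA against WT_PBS.

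Among 34 genes of the phosphoinositide 3-kinase and Akt step, 6 rose and 7 fell in KO_PBS against WT_PBS. Akt1, the widely expressed Akt form, was 84.7 ± 10.8 in KO_PBS and 45.7 ± 1.68 in WT_PBS (1.83-fold, adjusted p = 0.000518), and fell to 51 ± 4.19 in KO_secGAA (adjusted p = 0.00758 against KO_PBS). Both calls of Akt1 held in all 18 alternatives. Trib3, a pseudokinase that binds Akt, rose 10.5-fold (16.7 ± 9.89 in KO_PBS and 0.957 ± 0.119 in WT_PBS, adjusted p = 0.000926). Foxo4, a transcription factor that Akt inhibits, was 86.4 ± 5.5 in KO_PBS and 134 ± 10.1 in WT_PBS (log2 -0.63, adjusted p = 0.00134), and it rose to 126 ± 9.71 in KO_secGAA (adjusted p = 0.0137 against KO_PBS), so that 1 of 34 rose and 1 fell in that comparison. The rise of Foxo4 held in 15 of 18 alternatives, and not without KO_secGAA replicate 2 or 3 or KO_PBS replicate 2. Of the 34, 3 rose and 1 fell in KO_secGAA against WT_PBS, with Trib3 7.28-fold higher and Prkcz, an atypical protein kinase C, at 3.17 ± 0.479 in KO_secGAA and 6.66 ± 1.11 in WT_PBS (adjusted p = 0.022). Trib3 and Prkcz each passed there in 15 of 18 alternatives, Trib3 not with voom or without KO_secGAA replicate 2 or WT_PBS replicate 3, and Prkcz not without KO_secGAA replicate 1 or WT_PBS replicate 2 or 3.

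Of 28 genes of GLUT4 traffic, 6 rose and 3 fell in KO_PBS against WT_PBS. Rab13, a GTPase that Tbc1d4 acts on in rat muscle cells, was 23.3 ± 3.39 in KO_PBS and 9.09 ± 1.15 in WT_PBS (2.48-fold, adjusted p = 0.000214). Myo1c, a myosin of vesicle transport, rose 1.64-fold (adjusted p = 0.00134). Stxbp4, which binds the membrane fusion protein syntaxin 4, was 7.18 ± 1.31 in KO_PBS and 17.1 ± 1.57 in WT_PBS (log2 -1.21, adjusted p = 0.000784). Stxbp4 in KO_secGAA against KO_PBS rose to 12.2 ± 1.87 (adjusted p = 0.0381, passing in 9 of 18 alternatives) and Rab13 fell to 13.2 ± 0.735 (adjusted p = 0.0144), 1 of 28 each way. This call of Rab13 held in 14 of 18 alternatives, and not without KO_secGAA replicate 2 or 3 or KO_PBS replicate 2 or 3. Rhoq, a small GTPase of the insulin response, was the 1 of 28 that passed in KO_secGAA against WT_PBS (log2 -0.36, adjusted p = 0.0474), and it passed in 6 of 18 alternatives.

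Among the other transporters and the hexose kinases 1 of 10 rose and 4 fell in KO_PBS against WT_PBS, and 1 rose and 1 fell in KO_secGAA against KO_PBS. Hk1, the hexokinase found in most tissues, was 22.6 ± 1.37 in KO_PBS and 7.04 ± 0.851 in WT_PBS (3.07-fold, adjusted p = 5.17e-05), and 10.9 ± 1.18 in KO_secGAA, lower than in KO_PBS (adjusted p = 0.00427). Slc37a4, which carries glucose 6-phosphate into the endoplasmic reticulum, was 56.7 ± 14.5 in KO_PBS and 172 ± 4.61 in WT_PBS (log2 -1.62, adjusted p = 0.00016), and 115 ± 15.2 in KO_secGAA, higher than in KO_PBS (adjusted p = 0.00911). These 4 calls of Hk1 and Slc37a4 held in all 18 alternatives. Hk1 was also the 1 of 10 that rose in KO_secGAA against WT_PBS (1.51-fold, adjusted p = 0.0342, passing in 11 of 18 alternatives).

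In the list of transcription factors, thioredoxin partners and other alpha arrestins around Txnip and Slc2a4, 2 of 26 rose and 5 fell in KO_PBS against WT_PBS. Txn1, the thioredoxin that Txnip binds, was 104 ± 6.83 in KO_PBS and 46.3 ± 1.59 in WT_PBS (2.23-fold, adjusted p = 6.03e-05), and 72.3 ± 7.93 in KO_secGAA (adjusted p = 0.0184 against KO_PBS and 0.00985 against WT_PBS). Against KO_PBS it passed in 15 of 18 alternatives, not without KO_secGAA replicate 1 or 3 or KO_PBS replicate 1, and against WT_PBS in 17, not without WT_PBS replicate 3. Txnrd1, which reduces thioredoxin, rose 1.98-fold in KO_PBS against WT_PBS (adjusted p = 0.000988). Srebf1, a factor of lipid synthesis induced by insulin, was 42.8 ± 4.87 in KO_secGAA, 36.7 ± 7.96 in KO_PBS and 106 ± 14 in WT_PBS, and fell against WT_PBS in both (adjusted p = 0.00343 in KO_secGAA and 0.000216 in KO_PBS). In KO_secGAA against KO_PBS 2 of 26 rose, Hdac5, a histone deacetylase (1.39-fold), and Txnrd2, a mitochondrial thioredoxin reductase (1.35-fold, passing in 8 of 18 alternatives), and Txn1 fell. Of the same 26, 2 rose and 1 fell in KO_secGAA against WT_PBS.

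AMPK, the energy-sensing kinase, phosphorylates Tbc1d1 and Tbc1d4 in working muscle. In its list 2 of 19 genes rose and 4 fell in KO_PBS against WT_PBS. The subunit genes Prkag2 (30.6 ± 1.66 in KO_PBS and 12 ± 1.49 in WT_PBS, 2.51-fold, adjusted p = 8.36e-05) and Prkaa1 (26.8 ± 2.25 in KO_PBS and 14.5 ± 2.17 in WT_PBS, 1.83-fold, adjusted p = 0.00112) rose. Prkab2, which codes for the beta subunit abundant in muscle, fell (162 ± 19.4 in KO_PBS and 342 ± 58.4 in WT_PBS, log2 -1.07, adjusted p = 0.00144). In KO_secGAA against KO_PBS 1 of 19 rose, Prkab2 (1.71-fold, adjusted p = 0.0325, passing in 11 of 18 alternatives), and 2 fell, Prkag2 (log2 -0.87, adjusted p = 0.00497) and Prkaa1 (log2 -0.68, adjusted p = 0.0184). Prkaa1 passed in 14 of 18 alternatives there, and not without KO_secGAA replicate 2 or 3 or KO_PBS replicate 2 or 3. None of the 19 passed in KO_secGAA against WT_PBS. No call of a gene named from the 6 lists changed sign in the 18 alternatives, which were computed only for the comparisons in which that gene passed. The counts moved with the scaling: without scaling factors 12, 16, 15, 2, 7 and 4 genes of the 6 lists, in the order given, rose in KO_PBS against WT_PBS and 0, 1, 1, 3, 2 and 1 fell. Over all genes 4985 changed in that fit, 89.6% of them higher, so the shares given above do not apply to these counts.

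**Figure D4:**
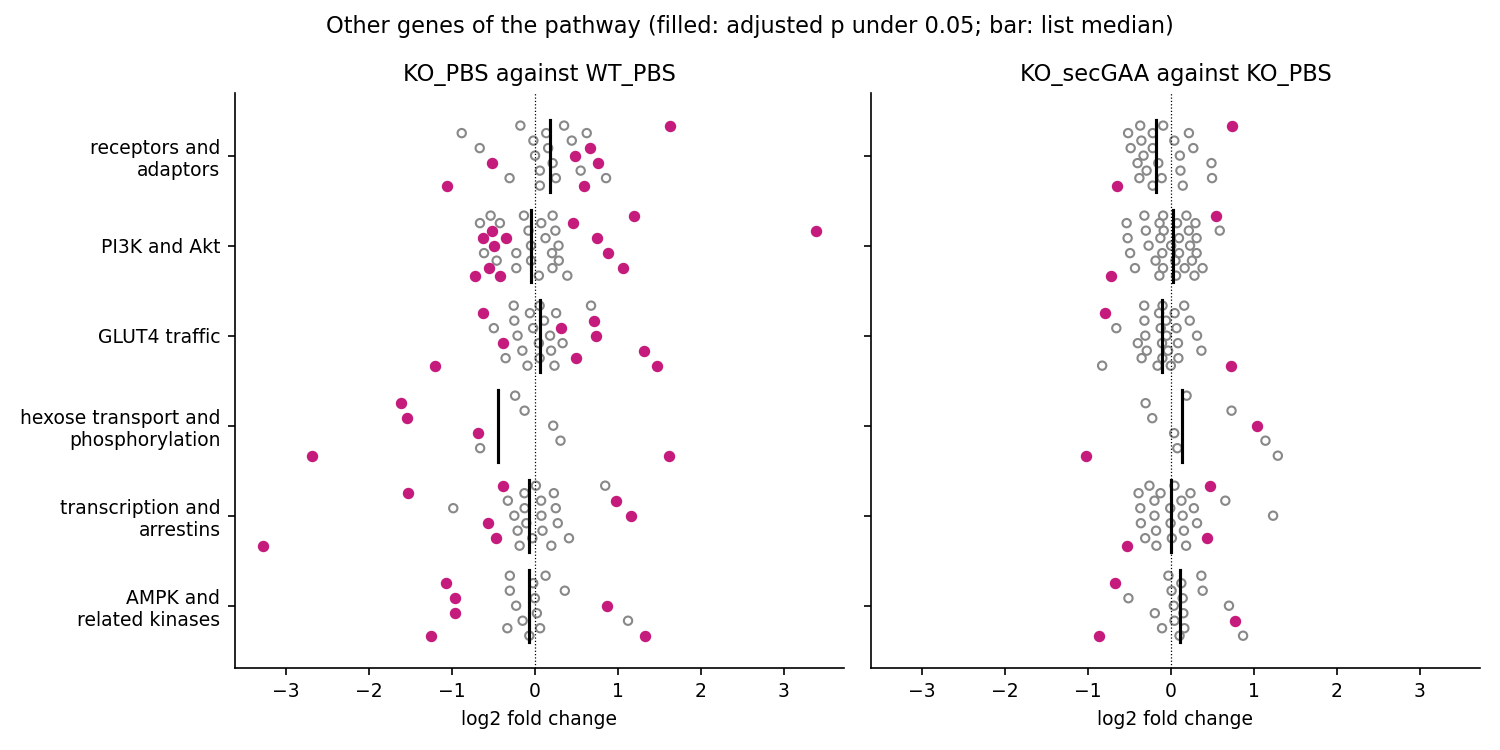
Log2 fold changes (x axes) of the tested genes of 6 lists of the insulin and glucose uptake pathway, in KO_PBS against WT_PBS and in KO_secGAA against KO_PBS; points are genes, filled where the adjusted p is under 0.05, bars are list medians and the dotted line is 0. In KO_PBS against WT_PBS filled points lie on both sides of 0 in each list, with Trib3 (log2 3.39) the farthest to the right, and in KO_secGAA against KO_PBS 3 or fewer genes of each list are filled.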

How the data were processed

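Polyadenylated RNA of 9 quadriceps samples was sequenced as single-end reads, per the labels' protocols. The submitters' processing notes list the build GRCm38 and the tools RSEM, CASAVA, cutadapt, edgeR and limma, with roles and versions not given in the sources used here. The deposited table holds a normalized signal, called normalized counts per the file headers: each value was whole reads plus 0.5 over an effective library size, per 1000000, for 100% of 118044 values (relative tolerance 1e-06). edgeR 4.0.16 TMM factors gave it back with a largest relative difference of 5.1e-15.

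Of the 13116 genes, 13089 reached 1 in 3 libraries and were tested, all 10 members included, with limma 3.58.1 in R 4.3.3 on log2(value + 0.5), trend, 3 group means and 6 residual degrees of freedom. This scale understates folds of low genes. Alternatives included edgeR and DESeq2 1.42.0 on the recovered reads. The test was tried on simulated data. Depth was 9299156 to 15957106 reads per library. The rule for names was all members, up to 3 called genes per list and comparison by smallest p, and the 2 genes most like each called member. Some genes that the rule picked are not reported here. The members and lists were chosen with earlier results of these data known. Coordinates are from GENCODE M21 and promoters from RefSeq.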

Additional observations from a re-analysis of the deposited data

How the results depend on the processing

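Of 540 alternative values of the members' log2 fold changes, 494 kept direction and side of the threshold, 10 lost the threshold, 14 gained it and 22 changed sign. Without scaling factors 4985 genes changed in KO_PBS against WT_PBS (89.6% of them higher, beside 49.9% of the 2867 reported), 958 in KO_secGAA against KO_PBS (10.6% higher, beside 37.2% of 481) and 1009 in KO_secGAA against WT_PBS (86.2% higher, beside 49.1% of 487). The sign then turned in KO_PBS against WT_PBS for Insr (0.168), Irs1 (0.014), Akt2 (0.159), Pik3r1 (0.038) and Txnip (0.123), in KO_secGAA against KO_PBS for Insr (-0.069) and Pik3r1 (-0.077), and in KO_secGAA against WT_PBS for Insr (0.099). With quantile normalization Irs1 was -0.01 in KO_secGAA against WT_PBS. None of these values passed.

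In KO_secGAA against KO_PBS 1 member changed with a pseudocount of 2, without scaling factors, with quantile normalization and with edgeR, and 3 with DESeq2. DESeq2 called 798 genes there, and a fit of only the compared groups 316. In KO_secGAA against WT_PBS 0 members changed with a pseudocount of 2, quantile normalization or voom, and DESeq2 called 1022 genes.

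Leaving out 1 library at a time, which leaves 2 in its group and uses fewer libraries, gave 1730 (without WT_PBS replicate 3) to 2848 genes and 2 to 3 members in KO_PBS against WT_PBS. It gave 161 (without KO_secGAA replicate 2) to 571 genes and 0 to 1 members in KO_secGAA against KO_PBS, and 89 (without WT_PBS replicate 3) to 504 genes and 0 to 1 members in KO_secGAA against WT_PBS. In KO_secGAA against KO_PBS the log2 fold change ran from -0.006 to 1.392 for Irs2, -0.132 to 0.008 for Akt2, -0.08 to 0.328 for Pik3r1 and -0.232 to 0.055 for Tbc1d1. In KO_secGAA against WT_PBS it ran from -0.168 to 0.187 for Irs1, -0.58 to 0.308 for Irs2 and -0.352 to 0.056 for Pik3r1. The cause of these shifts was not tested. No paired analysis was possible because the labels number no replicates across groups. With 3 libraries a group, small differences can be missed, also for the members at 91 to 1149 reads. The parts of counting and of the spread between libraries were not tested.

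Of the 40 calls of the genes that the naming rule picked from the 6 pathway lists, over the 3 comparisons, 25 passed in all 18 alternatives, and each of the other 15 was lost in 1 or more of the fits that leave out a library.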
